A study of Mus musculus with 31 samples.

Results

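Late spermatid genes act in haploid germ cells, after the stage of meiosis at which programmed DNA breaks form. When each gene is first transcribed was not measured in these data. The 10 genes described here are Prm1, Prm2, Tnp1, Tnp2, Catsper1, Catsper2, Spaca1, Tekt2, Tssk6 and Odf1, chosen by name from 21887 placed protein-coding genes. At each of them, break hotspots with a centre inside the gene or within 5000 bp of its ends were collected from 26 lists, made by DMC1 SSDS in mouse testis. In this assay DMC1, a recombinase that coats broken ends, is immunoprecipitated, and reads from the single-stranded DNA it holds are kept. One list came from a Prdm9 knockout (Prdm9-/-, strain B6;129P2-Prdm9<tm1Ymat>/J), 19 from F1 crosses and 6 from the inbred strains PWD (PWD/PhJ), MOL (MOLF/EiJ), CAST (CAST/EiJ), C3H (C3H/HeJ), B6 (C57Bl/6J) and 13R (B10.F-H2pb1/(13R)J). Crosses are written mother first, so that C3HfXB6m had a C3H mother (f) and a B6 father (m). Each genotype had 1 library, so no value has a replicate error, and neither age nor pooling of animals is given in the sources used here.

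The lists held 30929 hotspots in the knockout, 10445 to 19084 in F1 crosses and 14539 to 19528 in inbred strains. Read depth is unknown, so a missing hotspot means that none was called and not that breaks were absent. A note in the series record reports 1 sample as removed for a wrong cross label, and the sample it points to carries the label CAST here. Of the strongest CAST hotspots (percentile 80 and above), between 97.9% and 98.8% were in each of the 5 crosses with a CAST parent. Of the strongest 13R hotspots, 0.881% were in the CAST list, against 97.2% to 99.4% in the crosses with a 13R parent. The main counts that rest on the CAST list are also given without it. Lists of break positions hold no measure of the deleted gene or of cell type markers, so the knockout label could not be checked that way.

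PRDM9 is a zinc-finger protein that binds DNA in meiotic cells, marks the nearby chromatin by histone methylation and so places most hotspots in mice. Its zinc fingers differ between mouse strains, and so do the places it binds. Without it, breaks form at other open chromatin that carries the same histone mark, which in germ cells includes many gene promoters. The genes described here act later: transition proteins and then protamines replace histones in the condensing sperm head, CatSper channels carry calcium into the sperm tail, and the other members serve the acrosome, the tail and signalling.

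The promoters of 4 members are shown because the knockout list differed at them. They are the 250 bases before the transcription start in RefSeq on GRCm38.p6, the same primary assembly as the authors' mm10. Each is printed 5′ to 3′ on the strand of its gene, with each CG dinucleotide in capitals. Those of Catsper2, Spaca1 and Tnp1 lay at knockout hotspots and that of Prm1 at none.
Catsper2, chr2:121413793-121414042, minus strand: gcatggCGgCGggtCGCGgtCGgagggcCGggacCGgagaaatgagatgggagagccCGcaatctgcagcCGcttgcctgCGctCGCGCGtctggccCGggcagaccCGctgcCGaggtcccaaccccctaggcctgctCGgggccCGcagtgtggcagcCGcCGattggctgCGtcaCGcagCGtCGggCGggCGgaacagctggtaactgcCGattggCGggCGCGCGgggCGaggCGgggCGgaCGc
Spaca1, chr4:34050066-34050315, minus strand: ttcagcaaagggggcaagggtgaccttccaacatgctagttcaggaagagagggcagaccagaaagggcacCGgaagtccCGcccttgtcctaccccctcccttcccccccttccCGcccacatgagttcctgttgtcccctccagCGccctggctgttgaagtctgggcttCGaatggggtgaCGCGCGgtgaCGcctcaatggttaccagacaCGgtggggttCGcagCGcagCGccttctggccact
Tnp1, chr1:73015900-73016149, minus strand: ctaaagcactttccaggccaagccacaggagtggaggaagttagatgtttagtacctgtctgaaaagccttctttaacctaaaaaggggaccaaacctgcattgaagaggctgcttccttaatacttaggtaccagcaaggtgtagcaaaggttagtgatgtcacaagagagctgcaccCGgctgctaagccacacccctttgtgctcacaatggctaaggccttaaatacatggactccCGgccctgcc
Prm1, chr16:10796824-10797073, minus strand: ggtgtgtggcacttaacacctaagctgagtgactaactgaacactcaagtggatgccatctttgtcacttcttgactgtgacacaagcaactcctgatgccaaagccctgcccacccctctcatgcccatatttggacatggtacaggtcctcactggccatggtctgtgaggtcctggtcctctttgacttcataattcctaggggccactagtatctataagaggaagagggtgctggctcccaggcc

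Of the 10 genes, 7 had a hotspot in the knockout list (Tnp1, Tnp2, Catsper2, Spaca1, Tekt2, Tssk6 and Odf1). Over all protein-coding genes the share was 66.2%, so the count of 7 lies near the background. Longer genes have more room for a hotspot, and among the 13307 genes no longer than Spaca1, the longest member at 25196 bp, the share was 55.1%. In the F1 lists 4 members had a hotspot in at least 1 list (Prm1, Tnp2, Spaca1 and Odf1). Of all genes 61.7% did, and of genes no longer than Spaca1 43.9%. In the inbred lists 6 members had one (those 4 with Prm2 and Catsper1), and 5 without the CAST list. With all inbred lists, 63.9% of all genes did, and 46.6% of genes no longer than Spaca1.

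A single F1 list held hotspots at 0 to 3 of the 10 genes, with a mean of 1.05 ± 0.705 (SD over 19 lists). An inbred list held them at 1 to 4, with a mean of 2.5 ± 1.38 (SD over 6 lists), or 2.2 without CAST. Over all genes the shares per list ran from 20% to 31.8% in F1 lists and from 24.8% to 30.6% in inbred lists. For genes no longer than Spaca1 they averaged 12.2% in F1 lists and 12.3% in inbred lists. C3HfXB6m had hotspots at 3 members, where 28.4% of all genes had one. B6fXC3Hm had 2 (all genes 23.9%) and C3HfX13Rm had 2 (26.3%). The F1 lists with no member hotspot were B6fXMOLm (23.1%), B6fXPWDm (25.1%) and PWDfXB6m (31.5%).

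The remaining 13 F1 lists had 1 member each. Among them, the shares of all genes were 24% in 13RfXB6m, 20% in B6fX13Rm, 28.1% in MOLfX13Rm, 25.4% in PWDfX13Rm, 27.7% in MOLfXB6m and 28.6% in PWDfXMOLm. In the lists where that member was Odf1 they were 26.4% in B6fXCASTm, 24.5% in C3HfXCASTm, 26.4% in C3HfXMOLm, 27% in CASTfXB6m, 28.1% in CASTfXMOLm, 28.6% in PWDfXC3Hm and 31.8% in PWDfXCASTm. Of the inbred lists, CAST had 4 members (26.6%) and B6 4 (30.6%), C3H 3 (24.8%), MOL 2 (27.2%), 13R 1 (25.6%) and PWD 1 (25.7%). The F1 lists with more than 1 member all had a C3H parent, and no list with PRDM9 reached the 7 members of the knockout.

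Tnp1, Catsper2, Tekt2 and Tssk6 had a hotspot in the knockout list and in none of the other 25, a pattern that 13.1% of all genes share. Prm1, Prm2 and Catsper1 had one in lists with PRDM9 and none in the knockout list. Prm2 had its hotspot in the CAST list alone. Tnp2, Spaca1 and Odf1 had hotspots of both kinds. At Tnp2 and Spaca1 these did not overlap, and at Odf1 they did. No gene of the 10 was without a hotspot in all 26 lists, against 18.4% of all genes. Of all 21887 genes, 14494 (66.2%) had a hotspot in the knockout list, and 2872 of these had none in the other 25. The rest of the 14494 had hotspots of both kinds. Any of the other 25 lists held one for 14982 genes (68.5%), most of which also had a knockout hotspot. All these shares cover genes of any length.

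**Figure D1:**
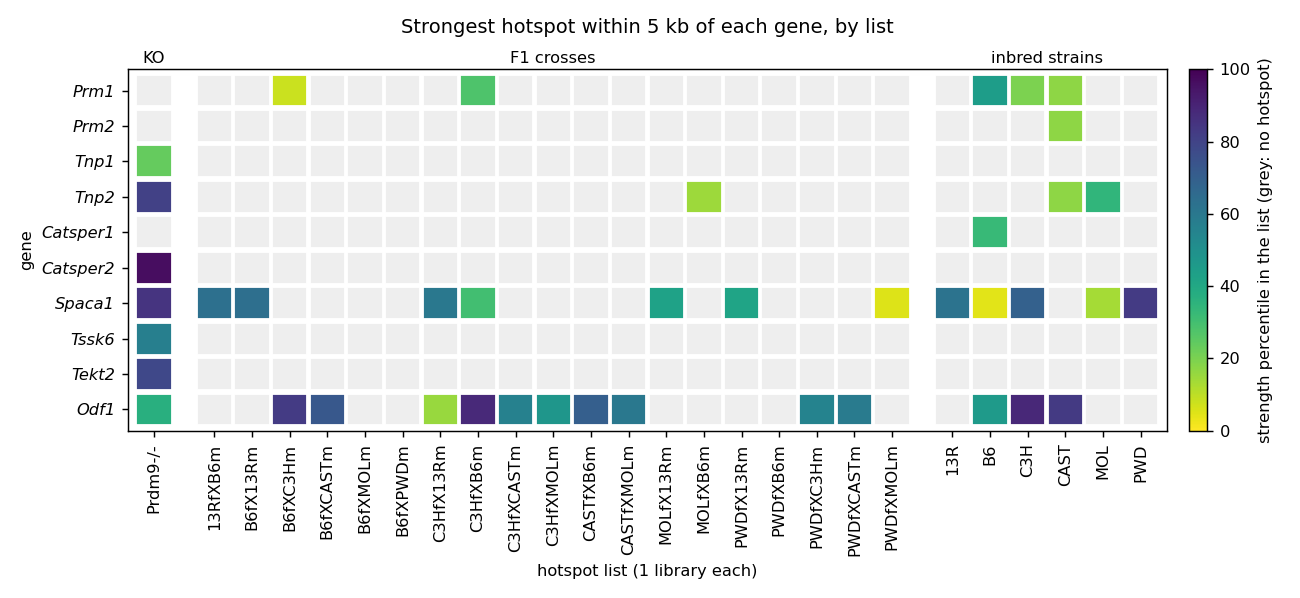
Strength percentile of the strongest hotspot within 5 kb of each gene (rows) in each list (columns), with the knockout first, then F1 crosses, then inbred strains; grey means that no hotspot was called. Odf1 and Spaca1 carry most of the hotspots in lists with PRDM9, and 4 genes are coloured in the knockout column alone.

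**Figure D2:**
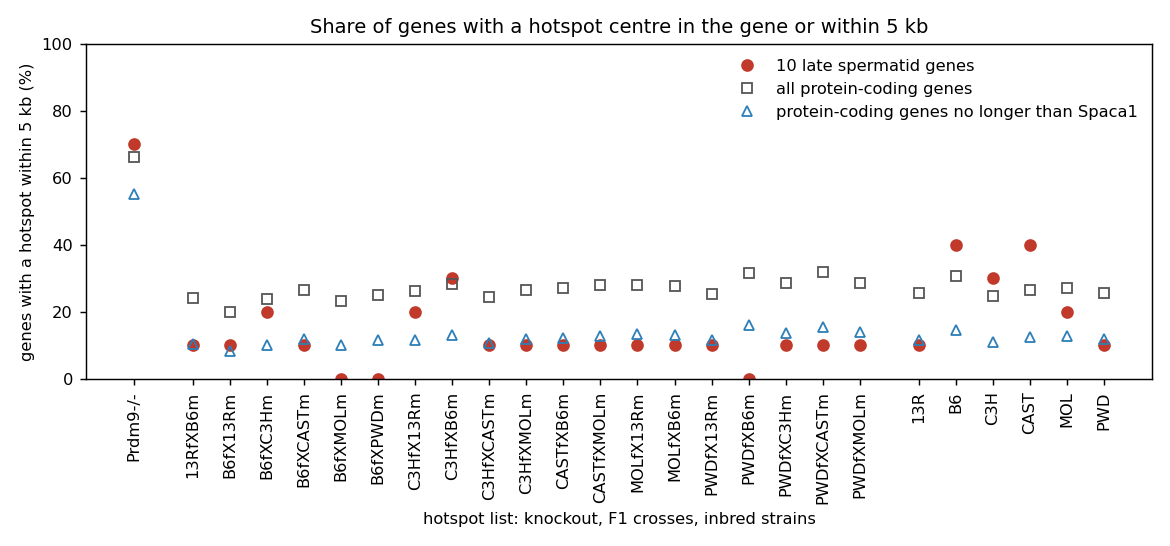
Percentage of genes with a hotspot centre in the gene or within 5 kb, for the 10 late spermatid genes (circles), all protein-coding genes (squares) and genes no longer than Spaca1 (triangles), by list. The 10 genes stand at 70% in the knockout, beside 66.2% of all genes, and between 0% and 40% in the other lists.

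Strength is the authors' deposited score, read here only as a percentile within its own list, where 100 is the strongest. The 8 knockout hotspots at the members had a median percentile of 67.8 and lay within 1000 bp of a protein-coding gene end in 8 of 8 cases. Of all knockout hotspots 33.5% did, and 71.1% of those in the same window of genes no longer than Spaca1. Over all genes with a start inside a knockout hotspot, the median percentile ran from 57.7 to 82.6 across ranges of promoter CG content. The 67.8 is therefore not particular to the members. The 25 F1 hotspots had a median percentile of 42.2, and 6 of them lay that close to a gene end, where 3.73% of all F1 hotspots and 22.2% of those at such short genes did. For the 15 inbred hotspots the median was 44.9, and 4 lay that close, where 3.58% of all and 21.8% of those at short genes did. A place called in several lists counts once in each of them, so these hotspots are not independent. Many of the F1 hotspots are repeat calls of the same places at Odf1 and Spaca1. Each set held strong and weak hotspots, and the percentile ran from 23.6 to 96.6 in the knockout, from 0.170 to 88.5 in F1 lists and from 4.65 to 88.8 in inbred lists.

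Among the packaging genes, Tnp1 encodes the first transition protein and stands alone on chromosome 1 (73015074 to 73015899, minus strand). Its knockout hotspot spanned 926 bp, from 73015122 to 73016047, and held the transcription start, 315 bp from its centre. It stood at percentile 23.6, the lowest of the 8 knockout hotspots at these genes, and was narrow for that list, where the median width was 2098 bp. With the score divided by width it stood at 77.2, and the hotspot at Tssk6 was then the lowest at 4.52. No other list had a hotspot within 10000 bp of Tnp1.

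The remaining packaging genes lie together on chromosome 16 in the order Tnp2 (10787935 to 10788655), Prm3, Prm2 (10791377 to 10792105) and Prm1 (10796332 to 10796823), with Socs1, a cytokine signalling inhibitor, next to Tnp2. The knockout hotspot nearest to them ran from 10784051 to 10787496 at percentile 80.8. Its centre lay 237 bp from the start of Socs1 and 2162 bp outside Tnp2, whose own start it did not hold. It counts for Tnp2 by position and lay 5604 bp from Prm2, just outside the limit, and 10559 bp from Prm1. Each hotspot was also given to the gene whose span had the nearest end, a rule added after seeing the data. This left 5 members in the knockout count (Tnp1, Spaca1, Tekt2, Tssk6 and Odf1). Tssk6 stayed by its span end, 94 bp from the hotspot centre, although the start of its neighbour Ndufa13 lay 70 bp from that centre. Under that rule 58.3% of all genes had a knockout hotspot, and 45.9% of genes no longer than Spaca1.

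Prm1, which encodes the protamine found in all mammals, had a weak hotspot to one side, 1589 to 1722 bp beyond its start end. It stood at percentile 8.20 in B6fXC3Hm and 27.8 in C3HfXB6m, against 44.9 in B6 and 19.6 in C3H. In the other 8 crosses with a B6 parent, and in the other 4 with a C3H parent, it was not called. A hotspot of the CAST list, from 10790856 to 10792303 at percentile 16.9, covered the start of Prm2, the second protamine gene. That place was in none of the 5 crosses with a CAST parent. By position it counts for Prm2, Tnp2 and Prm1, 4753 bp away.

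Beyond Socs1, a hotspot near the limit for Tnp2 was called at percentile 14.6 in MOLfXB6m and 34.5 in MOL, 4748 and 4805 bp from the gene. On the other side of the cluster, 5 of the 6 crosses with a PWD parent had a hotspot just outside the limit, 5528 to 5678 bp from Prm1. It stood at percentile 74.0 in B6fXPWDm, 29.4 in PWDfX13Rm, 81.95 in PWDfXB6m, 73.5 in PWDfXC3Hm and 68.6 in PWDfXCASTm. The PWD list and PWDfXMOLm had none within 10000 bp of Prm1.

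**Figure D3:**
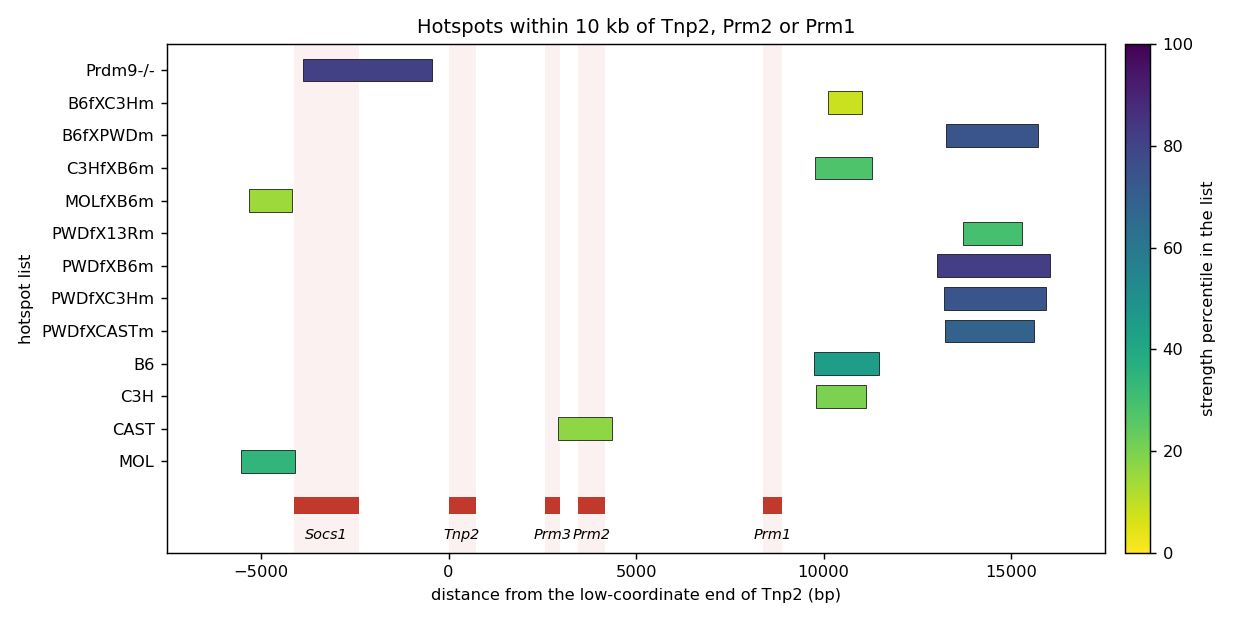
Hotspots (bars, coloured by strength percentile) within 10 kb of Tnp2, Prm2 or Prm1, by list, plotted as distance in bp from the low-coordinate end of Tnp2; gene spans are shaded and named below. The knockout hotspot lies over Socs1. The crosses with a PWD parent, except PWDfXMOLm, share a place beyond Prm1.

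Catsper1 and Catsper2 encode pore subunits of the sperm calcium channel. At Catsper2 (chromosome 2, 121391633 to 121414598, minus strand) the knockout hotspot ran from 121412092 to 121415713 and stood at percentile 96.6, rank 1056 of the list. Its centre lay 110 bp from the Catsper2 start and on the start of Pdia3, a protein disulphide isomerase gene read in the opposite direction from 110 bp away. The promoter printed above for Catsper2 therefore also lies at the start of a gene that most cells use. No list with PRDM9 had a hotspot within 10000 bp of Catsper2.

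Catsper1 (chromosome 19, 5335615 to 5344281) differed from it. The nearest knockout hotspot was 11403 bp away, at percentile 17.3. The B6 list had a hotspot from 5331919 to 5333554, 2879 bp outside the gene, at percentile 32.6, and no cross carried it.

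Spaca1 (chromosome 4, 34024872 to 34050067, minus strand) encodes an acrosomal membrane protein needed to shape the acrosome. In the knockout a hotspot from 34048633 to 34051046, at percentile 85.0, covered its start. In the lists with PRDM9 the hotspots lay elsewhere in the gene, and few were shared between strains. One carried by 13R (34029820 to 34031233) lay 5654 bp inside the gene from the end away from the start. It was present in 5 of 5 crosses with a 13R parent and 0 of 14 without (two-sided exact permutation test over crosses, adjusted p = 0.000442, with Benjamini-Hochberg adjustment over 94300 inbred hotspots). Its percentile was 63.4 in 13RfXB6m, 64.0 in B6fX13Rm, 59.96 in C3HfX13Rm, 42.2 in MOLfX13Rm and 41.4 in PWDfX13Rm, against 62.1 in 13R. The crosses with MOL and PWD were the lowest. With the score divided by width the order changed, to 70.6 in MOLfX13Rm and 63.6 in C3HfX13Rm, against 82.6 in 13R. Of all 13R hotspots at percentile 60 or above, 92.4% were likewise in all 5 crosses.

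Other Spaca1 hotspots were strong in an inbred strain and rare in its crosses. One of PWD (34042013 to 34044466) was called in 1 of 6 crosses with a PWD parent and in 0 of 13 without (exact permutation test, adjusted p = 0.535). Its percentile was 5.16 in that cross, PWDfXMOLm, against 82.8 in PWD, or 42.0 against 85.3 with the score divided by width. Of the 2908 PWD hotspots at percentile 80 or above, 5.74% were likewise found in at most 1 of the 6 crosses, and 46.6% in all 6. MOL had a weak hotspot 606 bp from that of PWD, at percentile 13.6, which matched none of the 6 crosses with a MOL parent. With centres less than 1000 bp apart, or any overlap of intervals, the PWDfXMOLm hotspot matched that of MOL as well. That cross has both parents, so its hotspot cannot be assigned to either of them.

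C3H had a hotspot over the end of Spaca1 away from its start (34023080 to 34025883). It was found in 1 of 6 crosses with a C3H parent, C3HfXB6m, and in 0 of 13 without (exact permutation test, adjusted p = 0.535). Its percentile was 30.4 in that cross, against 69.3 in C3H, or 62.8 against 68.2 with the score divided by width. A B6 hotspot in the middle of the gene, at percentile 4.65, was in no cross. Thus 5 inbred lists had a hotspot in or beside Spaca1, and no pair of them had centres less than 400 bp apart.

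Odf1 (chromosome 15, 38219203 to 38226735) encodes a protein of the outer dense fibres that stiffen the sperm tail. It held 21 of the 50 pairs of gene and hotspot, in 14 of the 26 lists, at 3 places when only the lists with PRDM9 are read. RefSeq gave no strand or start for this gene in the table used here. Positions are therefore given from its low-coordinate and high-coordinate ends.

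The place inside the high-coordinate end of Odf1 followed C3H. It was present in 6 of 6 crosses with a C3H parent and 0 of 13 without (exact permutation test, adjusted p = 0.000442). The percentile was 82.8 in B6fXC3Hm and 88.5 in C3HfXB6m, 15.3 in C3HfX13Rm, 4.63 in C3HfXCASTm, 47.4 in C3HfXMOLm and 55.2 in PWDfXC3Hm, against 88.8 in C3H. Both crosses of C3H with B6 were above the other 4, also with the score divided by width. Of all C3H hotspots at percentile 80 or above, 54.3% were in all 6 crosses. B6 itself had a hotspot there at percentile 45.8, its centre 95 bp away, yet none of the 8 B6 crosses without a C3H parent carried one.

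At Odf1 the other 2 places followed CAST. One lay 3098 bp outside the high-coordinate end (38227437 to 38232230 in CAST) and was present in 5 of 5 crosses with a CAST parent and 0 of 14 without (exact permutation test, adjusted p = 0.000442). Its percentile was 72.8 in B6fXCASTm, 56.6 in C3HfXCASTm, 70.0 in CASTfXB6m, 59.8 in CASTfXMOLm and 58.7 in PWDfXCASTm, against 83.0 in CAST. All 5 crosses were below the parent, but with the score divided by width 2 of them were above it, with 47.6 in B6fXCASTm and 51.6 in CASTfXB6m, against 45.003 in CAST. Of all CAST hotspots at percentile 80 or above, 95.8% were in all 5 crosses. B6 had a hotspot 183 bp from that of CAST, at percentile 32.8, and it was called in 2 of 10 crosses with a B6 parent, both of them with CAST.

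The second CAST place lay inside Odf1 (38222784 to 38225045) and was in 4 of 5 crosses with a CAST parent and 0 of 14 without (exact permutation test, adjusted p = 0.00479). Its percentile was 30.3 in B6fXCASTm, 0.170 in C3HfXCASTm, 13.9 in CASTfXB6m and 25.3 in PWDfXCASTm, against 64.0 in CAST. CASTfXMOLm had none. This call was lost when intervals had only to overlap (exact permutation test, adjusted p = 0.292), and also when each list was cut to its stronger 50% (adjusted p = 1). C3HfXCASTm thus carried 3 hotspots at Odf1, both places of CAST and that of C3H, and the place of C3H and the inner place of CAST were weak there.

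The knockout hotspot at Odf1 (38225538 to 38227055, percentile 36.8) held the high-coordinate end of the gene. Its centre was 449 to 748 bp from those of the hotspots that 6 C3H crosses, B6 and C3H had at that end. With sharing set at centres less than 400 bp apart, none of these 8 hotspots counted as the same place, and with less than 1000 bp all 8 did. No other knockout hotspot at the members had a counterpart in any of the 25 lists, also when any overlap of intervals was allowed. The share of all knockout hotspots with a counterpart was not counted here. This lack of sharing can therefore not be read as particular to these genes.

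**Figure D4:**
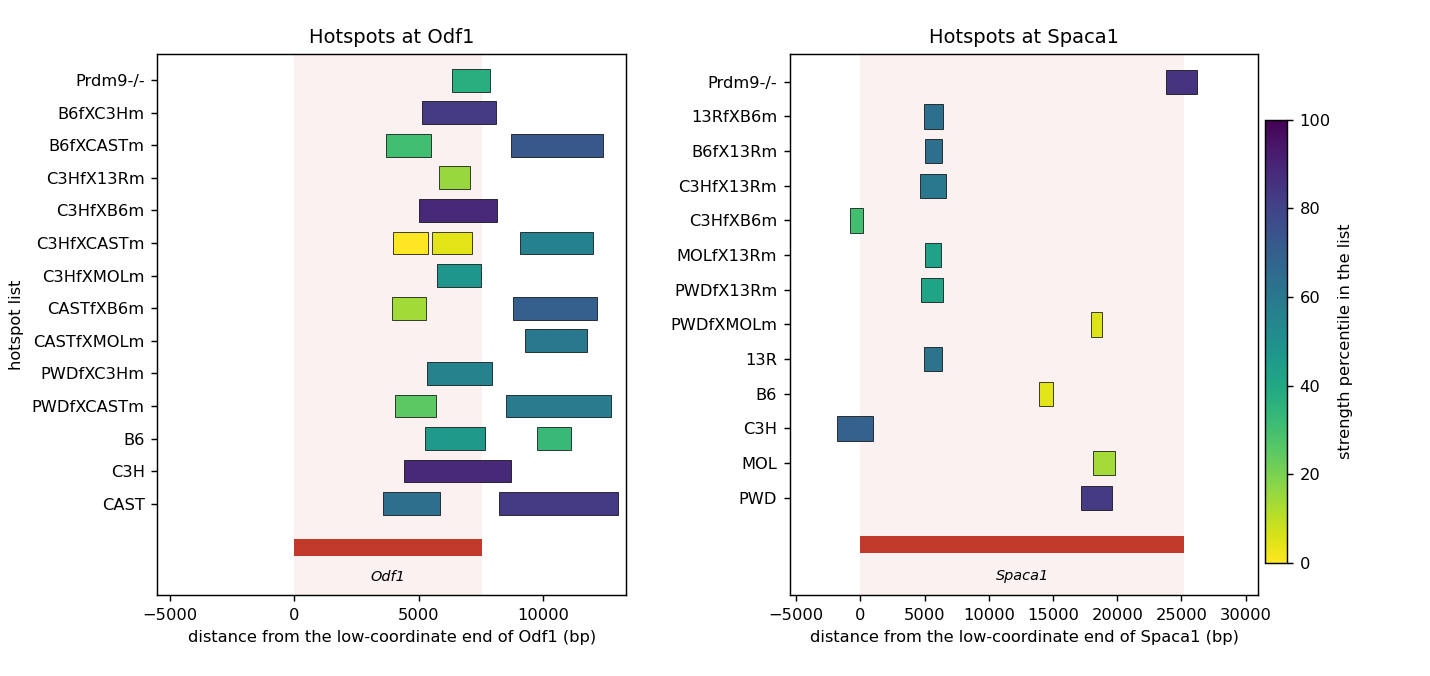
Hotspots (bars, coloured by strength percentile) within 5 kb of Odf1 (left) and Spaca1 (right), by list, plotted as distance in bp from the low-coordinate end of each gene, whose span is shaded. At Odf1 the C3H crosses share a place inside the gene and all 5 CAST crosses share a place beyond its high-coordinate end; at Spaca1 the 13R crosses share a place inside the gene, 5654 bp from its low-coordinate end in 13R.

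Over all members, 15 inbred hotspots could be followed into the crosses, and 4 were called more often in crosses with that strain than without at an adjusted p below 0.05. That is 26.7%, beside 34.7% of all 94300 inbred hotspots. Of all hotspots of a strain, 61.6% passed for 13R, 54.5% for CAST and 25.4% for C3H, the strains of the 4 calls. For the strains without a call at the members the shares were 13.6% for B6, 34% for MOL and 25.4% for PWD. Without the crosses that have a CAST parent, 2 of 12 passed, the Spaca1 hotspot of 13R and the Odf1 hotspot of C3H. The test treats crosses as independent, although many have a parent in common.

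Tekt2 and Tssk6 had no hotspot within 10000 bp in any list with PRDM9. Tekt2 (chromosome 4, 126322121 to 126325688, minus strand) encodes a tektin, a filament protein of the sperm tail. The knockout had a hotspot at each end of it. One, from 126324016 to 126326107 at percentile 36.8, held the Tekt2 start. The stronger, from 126320179 to 126323242 at percentile 78.4, was centred 7 bp from the start of the neighbouring gene Adprhl2. Tssk6 (chromosome 8, 69902184 to 69903518, plus strand) encodes a testis kinase needed for sperm chromatin condensation. Its knockout hotspot, from 69899889 to 69904292 at percentile 57.2, held the Tssk6 start, 94 bp from the hotspot centre. It also held the start of Ndufa13, a subunit gene of mitochondrial complex I, 164 bp away in the opposite direction. The Ndufa13 start was the nearer to the hotspot centre, at 70 bp.

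RefSeq gave a promoter for 8 of the members and for 17492 genes in all; Catsper1 and Odf1 were not among them. In the knockout, 5 of the 8 starts lay inside a hotspot (Tnp1, Catsper2, Spaca1, Tekt2 and Tssk6), beside 54.7% of all genes. In the lists with PRDM9, 1 of the 8 did, that of Prm2 in CAST, beside 11.2% of all genes in any of the 25 lists, and 0 did without the CAST list. PWDfXB6m held the largest share of starts among F1 lists, 5.12%, and none of these 8.

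The packaging genes had promoters poor in CG, and the other members with a promoter stood near or above the median over all genes. Observed over expected CG in the 250 bases was 0 at Prm1, 0.114 at Tnp2, 0.115 at Prm2 and 0.132 at Tnp1, and 0.537 at Spaca1, 0.603 at Tssk6, 0.746 at Tekt2 and 1.02 at Catsper2. The median over all genes was 0.536. The share of genes with a lower ratio was 50.1% for Spaca1, 55.1% for Tssk6, 69.1% for Tekt2 and 93.5% for Catsper2. Prm1 had no CG at all, as did 7.34% of promoters; CG reads the same on both strands. Over all genes, starts inside a knockout hotspot had a median ratio of 0.737 and the others 0.204.

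Each of the 4 members above 0.5 had its start inside a knockout hotspot, where 68.1% (0.4 to 0.6), 81.8% (0.6 to 0.8) and 87.5% (1 and above) of all starts with a like ratio did. Of the 4 packaging genes below 0.2, Tnp1 alone did, where 7.04% of such starts did, 294 of 4178.

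**Figure D5:**
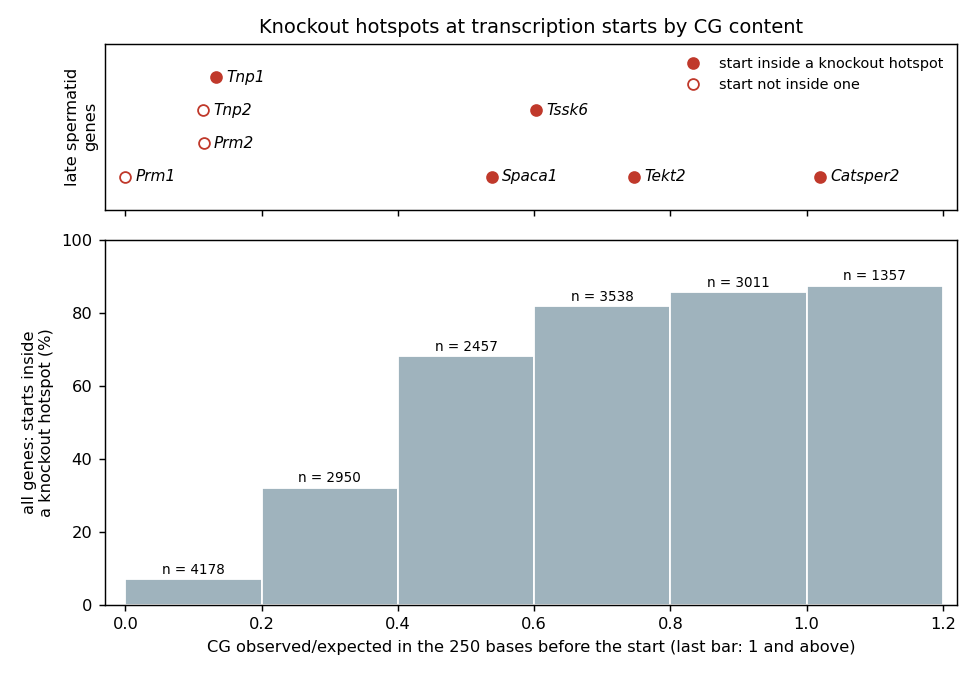
Top: observed over expected CG in the 250 bases before the start of each of the 8 members with a RefSeq promoter, filled where the start lies inside a knockout hotspot (height has no meaning). Bottom: the percentage of all starts inside a knockout hotspot for each range of that ratio, with the number of genes; it is 7.04% in the lowest range, where filled Tnp1 and 3 unfilled packaging genes lie, and 87.5% in the highest.

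Another 36 genes of spermatids were listed with the members, and 18 of them (50%) had a knockout hotspot in the same window. Of all genes 66.2% did, and of genes no longer than Spaca1 55.1%. Of their 33 known starts, 9 lay inside one, beside 54.7% of all starts. The strongest were at Zpbp, an acrosomal protein gene (percentile 95.5), Catspere2, a CatSper accessory subunit (90.2), the kinase gene Tssk4 (86.6), Prm3 (80.8, the hotspot at Socs1), the kinase gene Tssk1 (80.8) and Catsperg1, another accessory subunit (70.9). In any of the 25 lists with PRDM9, 6 of the 10 members had a hotspot (5 without the CAST list), and 26 of the 36 (72.2%), beside 68.5% of all genes and 52.6% of genes no longer than Spaca1. Of 40 genes at work in meiotic prophase, 39 had a knockout hotspot, and 37 (92.5%) had one in any of the 25 lists with PRDM9. Of all genes 66.2% and 68.5% did. Inside a knockout hotspot lay 30 of their 32 known starts, beside 54.7% of all starts. Median gene length was 2452 bp for the members, 10195 bp for the 36 and 36771 bp for the prophase genes, beside 17169 bp over all genes. Median observed over expected CG before the start was 0.335, 0.172 and 0.655 in the same order, beside 0.536 over all genes. The part of gene length or of CG content in these counts was not tested.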

How the data were processed

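Each file lists the hotspots of 1 DMC1 SSDS library with chromosome, start, end and a strength score that the authors deposited. The file has no header, the scale of the score is not given in the sources used here, and 104 values in 22 lists lie below 0, so scores were ranked within a list, with tied scores given the mean rank. CASAVA 1.8, MACS2 2.0.10 and build mm10 are named, without roles, in the submitters' processing notes. Filters and pooling of animals are not stated there. Of 31 labelled samples, 5 inputs without a list were not used. Starts were taken as 0-based and printed 1-based. Gene spans came from RefSeq on GRCm38.p6. Hotspots were matched between lists when centres lay less than 400 bp apart. For each inbred hotspot, presence in crosses with and without that strain as a parent was compared by Fisher's exact test, the exact permutation test of a yes or no value, with Benjamini-Hochberg adjustment over 94300 hotspots and a threshold of 0.05; the code was tested on simulated data. No test was made of the members' counts. The rule for named genes took all members, genes with an end nearer to a member's hotspot, and up to 6 of the 36 other spermatid genes by knockout percentile. The neighbours Prm3, Pdia3 and Ndufa13, the gene-length limit, the ranges of CG ratio and the percentile limits of 60 and 80 were chosen after seeing the data. Members and gene lists were chosen with earlier results of these data known. Python 3.11.15, pandas 2.3.3, numpy 2.4.6 and scipy 1.17.1 were used.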

Additional observations from a re-analysis of the deposited data

How the results depend on the processing

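With a window of 1000 bp in place of 5000 bp, 6 members had a hotspot in the knockout list. In an F1 list 2 had one, and in an inbred list 3. Of all genes 62.3%, 52.1% and 53.9% did, and of genes no longer than Spaca1 49.9%, 30.1% and 31.8%. In the strongest 50% of each list these counts were 5, 2 and 2 (all genes 48.5%, 46.3% and 48.1%). Among genes no longer than Spaca1 the shares were 37.6%, 27.1% and 28.7%. The mean was 0.833 members per inbred list, and 2 of 6 testable inbred hotspots passed the inheritance test. In the strongest 5000 hotspots of each list the counts were 2 in the knockout, 2 in F1 and 2 in inbred lists. Of all genes 22.5%, 37.4% and 38.3% did, and of genes no longer than Spaca1 14.9%, 19.3% and 19.8%. The means were 0.316 members per F1 list and 0.667 per inbred list. Leaving out crosses with a CAST parent gave 2 inheritance calls of 12. Sharing with the knockout was 0 hotspots as reported, and 8 when centres could lie up to 1000 bp apart or intervals had only to overlap. The same share over all hotspots was not counted. Beside the Odf1 hotspot of CAST inside the gene, that of C3H lost its call in the strongest 50% (adjusted p = 0.0575, exact test). The cause of these changes was not tested. Dividing the score by hotspot width moved 32 of 50 percentiles by more than 5 points, by between -52.7 and 53.6, so strength orders depend on that choice; ranking among autosomal hotspots moved none by that much. No paired analysis was possible because each genotype has 1 library and no replicate number. Depth is unknown, so weak hotspots may be missed in any list.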

Other observations

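A further place lay outside the limit used above, 8735 to 8908 bp from Odf1, in all 5 crosses with a CAST parent and in CAST. Its percentile was 41.3 in B6fXCASTm, 15.9 in C3HfXCASTm, 33.8 in CASTfXB6m, 26.0 in CASTfXMOLm and 37.1 in PWDfXCASTm, against 55.4 in CAST. All 5 crosses were below the parent.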
